A study of Mus musculus and Rattus norvegicus with 6 samples.

Results

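The miRNAs miR-204 and miR-211 are a pair of paralogs of the eye, and their levels were read here in small RNA libraries of the adult retina of rat and mouse. Members were chosen by name: every listed name of miR-204 or miR-211, which gave the 5p and the 3p arm of each, 4 of the 764 names in the rat table and the same 4 of the 1915 names in the mouse table. Retinas came from wild-type Sprague Dawley rats (3 libraries, r1, r2 and r4) and wild-type C57BL/6 mice (3 libraries, m1, m3 and m4), all 9 weeks old, with no treatment named for either species. Whether the 3 libraries of a species come from separate animals is not said in the labels, and p-values therefore cover the variation among these libraries, part of which may be technical. The dissection text of the mouse samples speaks of rat eyes, as does that of the rat samples. Strain and the table of names differ with the species and cannot be told apart from it, and no library batch is named in the labels or columns. In bulk retina, a different number of cells of a type and a different amount of RNA per cell cannot be told apart either.

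A miRNA hairpin is cut into a duplex of a 5p and a 3p strand, of which usually 1 is kept in the silencing complex and the other is mostly lost. The kept strand pairs with messenger RNAs through its seed, bases 2 to 8 from its 5′ end. Both paralogs lie in introns of genes of the TRPM family of cation channels and are known as miRNAs of the retinal pigment epithelium, the pigmented layer behind the photoreceptors. They are also made in the neural retina, including Müller glia, and in mouse their retinal levels are known to change with light adaptation. In medaka fish, miR-204 is needed for normal development of the lens and the optic cup. The study's question, as far as its labels give it, was which miRNAs the retinas of rat and mouse hold.

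The mature strands show what a read must carry to be counted under 1 paralog and not the other, and they are printed here for mouse from RefSeq (GRCm38.p6), 5′ to 3′, with the seed in capitals. All 4 mouse names matched that table by name, and rat sequences were not used here.
mmu-miR-204-5p: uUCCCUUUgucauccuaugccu
mmu-miR-211-5p: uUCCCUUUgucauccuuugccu
mmu-miR-204-3p: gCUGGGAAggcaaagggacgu
mmu-miR-211-3p: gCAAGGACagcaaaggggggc
The 5p strands of 22 bases differ at 1 base, A17U, with the miR-204-5p base first and positions counted from 1 at the 5′ end. Their seeds are the same. The 3p strands of 21 bases have 14 bases the same at matching positions and different seeds. How mismatches and reads that match several names were counted is not given in the sources used here, so the division of 5p reads between the paralogs rests on 1 base and is uncertain to that extent.

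The hairpins show where the arms sit, with the mature strands in capitals.
Mir204: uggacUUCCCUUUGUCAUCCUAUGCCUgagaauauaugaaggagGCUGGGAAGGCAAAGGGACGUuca
Mir211: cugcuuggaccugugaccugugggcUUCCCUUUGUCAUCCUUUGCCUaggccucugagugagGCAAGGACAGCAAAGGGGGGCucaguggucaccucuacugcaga
In mouse (GRCm38, plus strand), Mir204 lies at chr19:22750605-22750672 and Mir211 at chr7:64205806-64205911. In the GENCODE annotation of that build, Mir204 lies within Trpm3, a heat- and steroid-gated channel gene, and Mir211 within Trpm1, the channel gene of the light response of ON bipolar cells. Both miRNAs are on the strand of their host. Of the 18 Trpm3 transcripts that span Mir204 and the 12 Trpm1 transcripts that span Mir211, 0 have an exon that overlaps the hairpin, so both are intronic. Trpm1 and Trpm3 messenger RNA was not measured here.

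The rat libraries held 24169628 to 28198305 counts and the mouse libraries 27843590 to 30514632, so each 5p arm rests on 147658 counts or more and each 3p arm on 857 or more. Retinal marker miRNAs were present in all 6 libraries: the neural pair of miR-124-3p and the miR-9 5p arm held 5.12% to 9.05% of counts in rat and 7.04% to 7.35% in mouse. Rat library r1 stood apart from r2 and r4. It held the lowest share of that pair, 5.12%, and the most miR-184, a miRNA of cornea and lens, with 0.937% against 0.176% in r2 and 0.112% in r4. The other listed miRNAs of ocular tissue outside the neural retina, except miR-200a-3p, had their lowest rat share in r1. Of the photoreceptor miRNAs, miR-183-5p was highest in r1 (18.7%, against 14.6% in r2 and 14.9% in r4). The other, miR-96-5p, was lowest there (0.994%, against 1.45% and 1.42%). Differences between species for the paralogs are therefore given with and without r1.

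Both 5p arms were abundant in both retinas and took a larger share of the counts in every rat library than in any mouse library. For miR-204-5p, the count was 361450 in r1, 476218 in r2 and 446238 in r4, against 235983 in m1, 299166 in m3 and 291530 in m4. As a share of all miRNA counts this was 1.50% in r1, 1.88% in r2 and 1.58% in r4, against 0.848% in m1, 0.980% in m3 and 1.03% in m4. The species did not overlap, and r2 was the highest library and m1 the lowest. On this scale of shares, 32.2% of the 398 names that could be tested had all rat libraries above all mouse libraries, and with totals of all names the median log2 difference of these names was 0.33 in favour of rat.

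For miR-211-5p, the count was 231008 in r1, 303474 in r2 and 303547 in r4, against 147658 in m1, 165386 in m3 and 163185 in m4. These were shares of 0.956%, 1.20% and 1.08% in r1, r2 and r4 and of 0.530%, 0.542% and 0.579% in m1, m3 and m4. Again the groups did not overlap. The 95% Wilson intervals, which cover counting error only, were narrow: 1.491% to 1.500% for miR-204-5p in r1 and 0.844% to 0.851% in m1. Over all libraries the widest half-width was 0.509% of the value for a 5p arm and 6.69% of the value for a 3p arm. Libraries of 1 species thus differed by more than counting error. The mean share was 1.65% ± 0.203 in rat and 0.954% ± 0.0962 in mouse for miR-204-5p, and 1.08% ± 0.122 in rat and 0.550% ± 0.0254 in mouse for miR-211-5p (SD, n = 3 each).

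**Figure D1:**
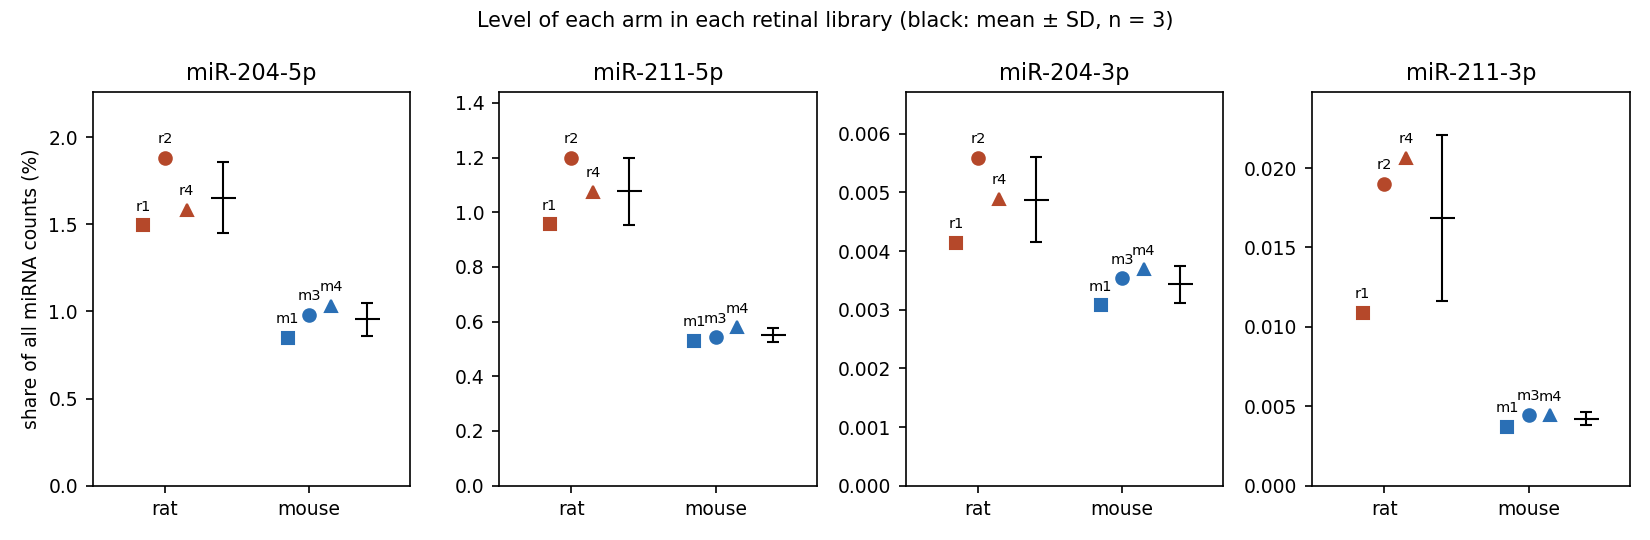
Share of all miRNA counts (%, linear axes that start at 0 and differ between panels) of each arm in each rat (r1, r2, r4) and mouse (m1, m3, m4) library, with the mean ± SD in black. In all 4 panels the rat libraries lie above the mouse libraries, by the widest margin for miR-211-3p, and so they do for 32.2% of the 398 names tested.

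In the order of mean shares, miR-204-5p stood at rank 13 of 764 names in rat and 19 of 1915 in mouse, and miR-211-5p at rank 21 in rat and 25 in mouse. The neighbours of miR-204-5p in rat were miR-181a-5p above it, with 1.72% ± 0.680, and miR-7a-5p below it, with 1.62% ± 0.177 (SD, n = 3 each). In mouse they were miR-96-5p above, with 1.02% ± 0.0563, and let-7c-5p below, with 0.940% ± 0.0932 (SD, n = 3 each). Neither species separated miR-204-5p from these neighbours by more than the spread between libraries. The order of the 4 arms was miR-204-5p, miR-211-5p, miR-211-3p and miR-204-3p in both species and in each of the 6 libraries. The 5p arms exceeded the 3p arms in every library. The mean shares of miR-211-3p and miR-204-3p were 0.0169% ± 0.00523 and 0.00488% ± 0.000724 in rat. In mouse they were 0.00421% ± 0.000425 and 0.00344% ± 0.000318 (SD, n = 3 each). Counts of different miRNAs are compared as listed, with no correction for how well each sequence is captured in a library.

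The 5p arms of both paralogs rose in rat relative to mouse in the test across all names listed for both species. Levels in this test are CPM, each count scaled to the same total over the 542 shared names with factors from TMM, a method that sets the bulk of miRNAs equal between libraries. On this scale miR-204-5p had 22630 CPM ± 5866 in rat and 14630 CPM ± 896 in mouse (SD, n = 3 each). The log2 difference was 0.63 ± 0.21 (SE; edgeR quasi-likelihood test, Benjamini-Hochberg adjusted p = 0.0345), a fold of 1.55. For miR-211-5p the levels were 14690 CPM ± 3464 in rat and 8455 CPM ± 148 in mouse (SD, n = 3 each), with a log2 difference of 0.80 ± 0.20 (adjusted p = 0.00866) and a fold of 1.74. Of the 398 names tested, 25.6% were called higher in rat and 24.4% lower at an adjusted p under 0.05, so a call for a single name is common in this comparison. The number called higher includes 3 of the 4 arms, miR-204-5p, miR-211-5p and miR-211-3p. All rat libraries lay above all mouse libraries on the CPM scale for the same 3 arms, and for 29.4% of the names tested.

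The call of miR-204-5p was less stable than its direction. It was lost without m1 (0.59, adjusted p = 0.116), without m3 (0.67, adjusted p = 0.0896) and without m4 (0.65, adjusted p = 0.0704), and when renamed pairs were added to the join (0.55, adjusted p = 0.0516). Without r1 the log2 difference was 0.40 and called (adjusted p = 0.002). The call of miR-211-5p held when any 1 library was left out, with log2 differences of 0.59 (without r1) to 0.93 (without r4). With totals of the shared names in place of TMM, the median of all tested names moved up by 0.36 (log2) and 74.7% of called names were higher in rat, against 51.3% with TMM. On that scale miR-204-5p stood at 0.91 and miR-211-5p at 1.08, against a median of 0.43 for all names.

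Rat library r1 changed place with the scaling. By share of all counts it had the lowest value of the 3 rat libraries for both 5p arms, while by CPM after TMM it had the highest. For miR-204-5p these CPM were 29130 in r1, 21020 in r2 and 17730 in r4, and for miR-211-5p they were 18620, 13400 and 12060. The TMM factor was 0.806 for r1, 1.29 for r2 and 1.32 for r4, against 0.864 to 0.967 for the mouse libraries. The order of the rat libraries therefore cannot be read from either scale alone, while the order of the species was the same on both.

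**Figure D2:**
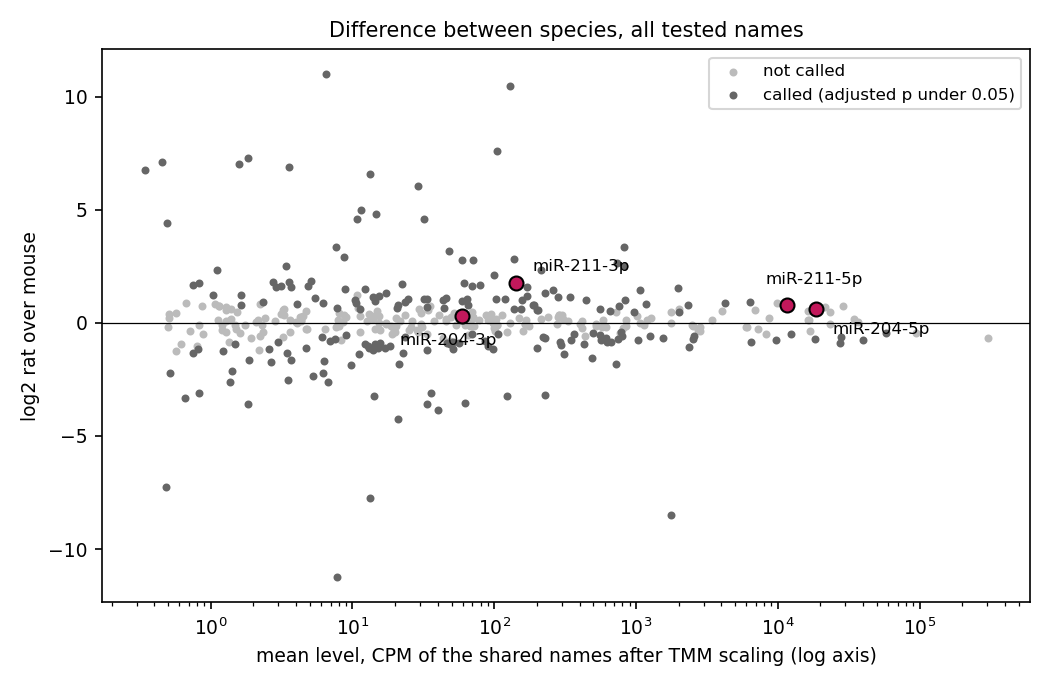
Log2 difference, rat over mouse (vertical), against mean level in CPM of the shared names after TMM (horizontal, log axis), 1 point for each of the 398 names tested, with called names dark. The 4 arms are marked: miR-211-3p at 1.76, miR-211-5p at 0.80, miR-204-5p at 0.63 and miR-204-3p at 0.32, the last not called.

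Of the 3p arms, the strands that are mostly discarded, miR-211-3p rose 3.38-fold in rat, and the difference of miR-204-3p was not called. For miR-211-3p the counts were 2632 in r1, 4811 in r2 and 5826 in r4, against 1037 in m1, 1367 in m3 and 1251 in m4. After TMM these were 212, 212 and 232 CPM in r1, r2 and r4, against 60.1, 70.5 and 63.5 CPM in m1, m3 and m4. The 3 rat libraries were close to each other on this scale and each was far above every mouse library. The log2 difference was 1.76 ± 0.15 (SE; edgeR, adjusted p = 1.40e-05). The call held when any 1 library was left out, with log2 differences of 1.72 to 1.82, and under each of the other scalings and filters, with 1.66 to 2.11.

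For miR-204-3p the counts were 1002 in r1, 1415 in r2 and 1380 in r4, against 857 in m1, 1080 in m3 and 1039 in m4. After TMM these were 80.8, 62.5 and 54.8 CPM in r1, r2 and r4, against 49.6, 55.7 and 52.8 CPM in m1, m3 and m4. The species overlapped, since r4 lay below m3. The log2 difference was 0.32 ± 0.18 (edgeR, adjusted p = 0.173), and without r1 it was 0.15 (adjusted p = 0.18). With upper-quartile factors it was 0.21 (adjusted p = 0.275). With totals of the shared names alone it was 0.62 and called (adjusted p = 0.0304), against a median of 0.43 for all names on that scale.

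Within a library, a ratio of counts does not depend on how libraries are scaled. By counts, miR-204-5p was the larger of the 5p paralogs in all 6 libraries. The ratio of miR-204-5p to miR-211-5p was 1.57 in r1, 1.57 in r2 and 1.47 in r4, against 1.60 in m1, 1.81 in m3 and 1.79 in m4. The species did not overlap, but m1 was close to the rat libraries: miR-204-5p made up 61.5% of the 5p pair in m1 (95% Wilson interval 61.4% to 61.7%) and 61.1% in r2 (61.0% to 61.2%). How many other pairs of miRNAs separate the species by their ratio was not counted, so the separation cannot be called particular to this pair. The mean log2 ratio was 0.62 ± 0.05 in rat and 0.79 ± 0.10 in mouse (SD, n = 3 each), a difference of -0.17 (two-sided exact permutation test, p = 0.1, the smallest p that 3 against 3 libraries can give). Summing both arms gave -0.18 (exact permutation test, p = 0.1), and the difference of medians was -0.19 (exact permutation test, p = 0.2). Without r1 the difference of means was also -0.19, where the smallest possible p is 0.2.

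The 3p arms gave the opposite order, with miR-211-3p the larger in all 6 libraries, and a wider gap between species. The ratio of miR-204-3p to miR-211-3p was 0.381 in r1, 0.294 in r2 and 0.237 in r4, against 0.826 in m1, 0.790 in m3 and 0.831 in m4. The highest rat library was below the lowest mouse library, and how many other pairs separate in this way was not counted. The mean log2 ratio was -1.75 ± 0.34 in rat and -0.29 ± 0.04 in mouse (SD, n = 3 each), a difference of -1.45 (exact permutation test, p = 0.1, the smallest possible) that was -1.63 without r1. This comparison of the 3p arms was chosen after the values were seen.

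**Figure D3:**
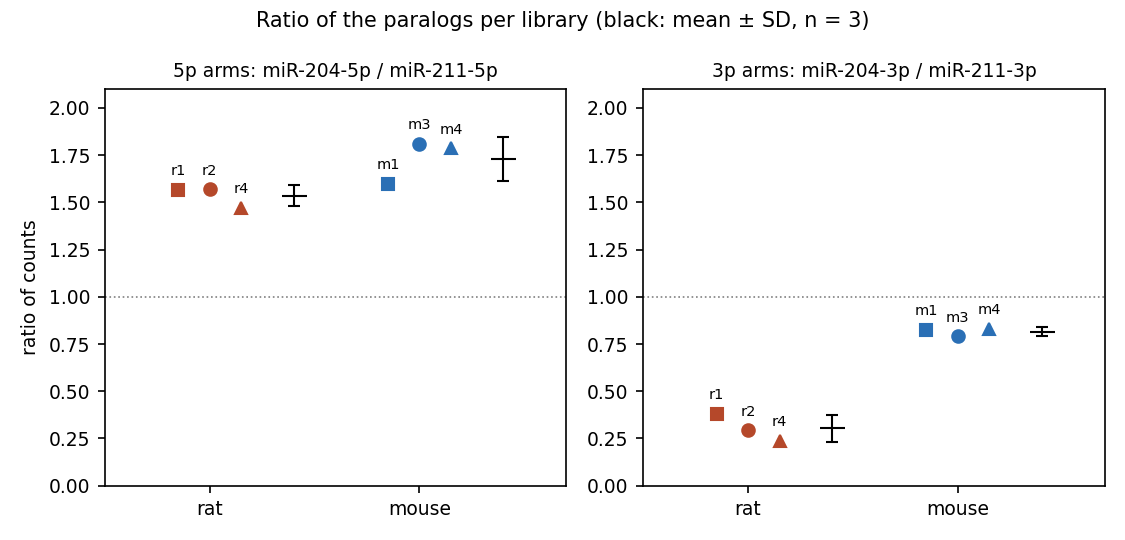
Ratio of miR-204 to miR-211 counts in each library for the 5p arms (left) and the 3p arms (right), linear axes from 0, with the mean ± SD in black and a dotted line at equal counts. The 5p ratio lies between 1.47 and 1.81 in all libraries, and the 3p ratio is at most 0.381 in rat and at least 0.790 in mouse.

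Both hairpins were read almost only from the 5p arm, and the small 3p share was higher in every rat library for miR-211 and lower in every rat library for miR-204 than in any mouse library. Of all counts of the miR-211 hairpin, the 3p arm held 1.13% in r1, 1.56% in r2 and 1.88% in r4, against 0.697% in m1, 0.820% in m3 and 0.761% in m4. The rat libraries also differed among themselves by more than counting error, with 95% Wilson intervals of 1.08% to 1.17% in r1 and 1.84% to 1.93% in r4. Of all counts of the miR-204 hairpin, the 3p arm held 0.277% in r1, 0.296% in r2 and 0.308% in r4, against 0.362% in m1, 0.360% in m3 and 0.355% in m4. The intervals were wider for this arm, up to 6.67% of the value on either side. How many other hairpins separate the species in the same way was not counted, so the separation cannot be called particular to this pair.

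**Figure D4:**
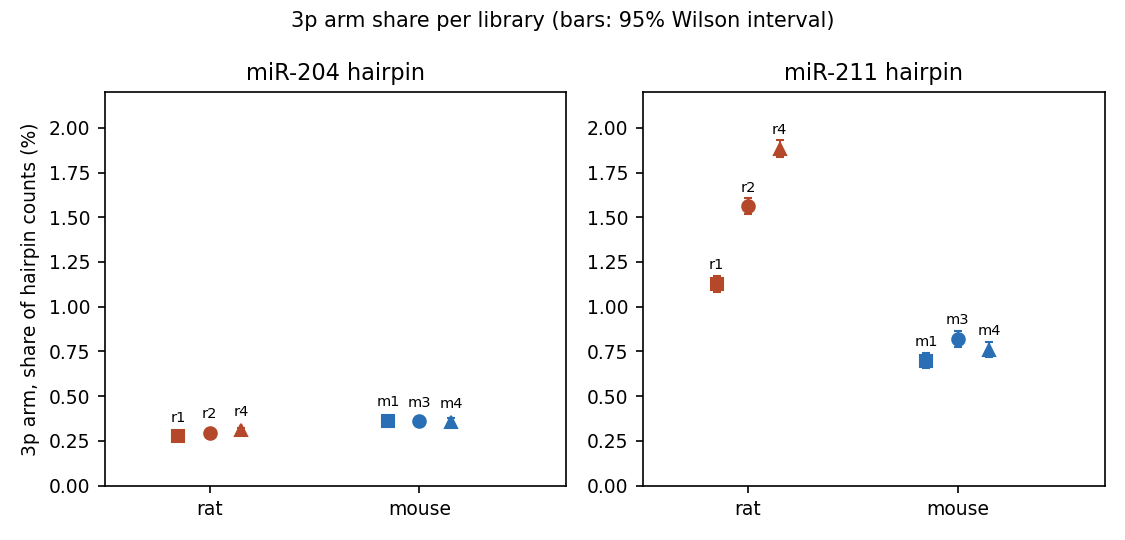
Share of the 3p arm in all counts of the miR-204 hairpin (left) and the miR-211 hairpin (right) in each library, linear axes from 0 in percent, with 95% Wilson intervals of counting error as bars. The miR-211 share is 1.13% to 1.88% in rat and 0.697% to 0.820% in mouse, and the miR-204 share lies between 0.277% and 0.362% in all 6 libraries.

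In the test of arm ratios over 169 hairpins, the log2 ratio of 5p to 3p counts of miR-211 was lower in rat, at 6.05 in rat and 7.03 in mouse (difference -0.99 ± 0.25, SE; limma, adjusted p = 0.0353). For miR-204 the log2 ratio was 8.41 in rat and 8.12 in mouse, a difference of 0.29 ± 0.17 that was not called (adjusted p = 0.282), and 0.25 without r1 (adjusted p = 0.127). In this test 24.3% of hairpins were called, 14 with a higher and 27 with a lower 5p to 3p ratio in rat, and the median over all hairpins was -0.15. The number called, 41, was 63 without r1, 27 without m1 and 26 without m3. The call of miR-211 was lost without r2, r4, m1, m3 or m4 (adjusted p between 0.0892 and 0.133), while the log2 difference stayed between -1.19 and -0.82. Without r1 it was -1.19 and called (adjusted p = 0.0049). By size, the miR-211 difference ranked 55 of 169 and the miR-204 difference 128, against a median size of 0.59 (log2) over all hairpins. The gap between the changes of the paralogs, the log2 difference of miR-204 minus that of miR-211, was 1.28 (exact permutation test over libraries, p = 0.1, the smallest possible), was 1.44 without r1 and was computed after the values were seen. Among all tested hairpins, 14.2% had a higher ratio of 5p to 3p than miR-204 in rat and 13.6% in mouse, and for miR-211 these were 20.7% and 17.8%.

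**Figure D5:**
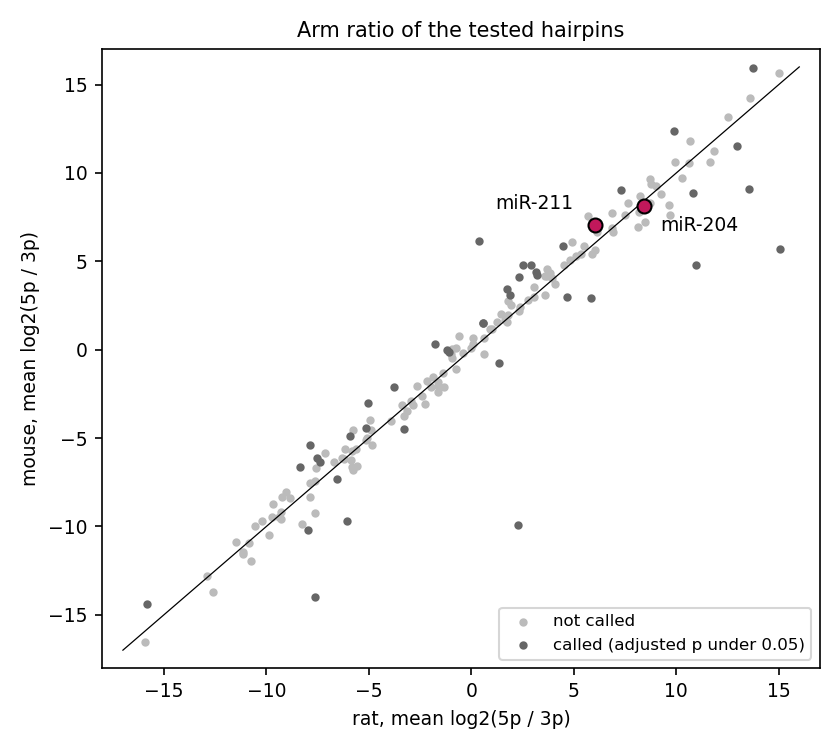
Mean log2 ratio of 5p to 3p counts in mouse (vertical) against rat (horizontal) for the 169 hairpins tested, called hairpins dark, with the line of equal ratios. The miR-211 hairpin lies above the line, at 6.05 in rat and 7.03 in mouse, and the miR-204 hairpin lies close to it, at 8.41 and 8.12.

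The 5p arms of the pair were also set against 4 other abundant retinal miRNAs in the same library. Such a ratio needs no scaling, but it moves with either of its terms. Per 100 counts of miR-183-5p, a photoreceptor miRNA, the pair had 13.1 in r1, 21.1 in r2 and 17.8 in r4, against 5.52 in m1, 6.32 in m3 and 6.84 in m4. Per 100 counts of miR-124-3p, a neuronal miRNA, the pair had 390.1, 231 and 206 in r1, r2 and r4, against 101, 98.5 and 107 in m1, m3 and m4. Per 100 counts of the miR-9 5p arm, a miRNA of neural progenitors and glia, the pair had 34.3 to 54.6 in rat and 24.3 to 28.6 in mouse. For miR-125b-5p, also a glial miRNA, the numbers were 393 to 1011 in rat and 236 to 243 in mouse.

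All 4 ratios were higher in every rat library than in any mouse library. They have the same numerator, the pair, which itself held a larger share of counts in every rat library, so they are not separate results. How many other miRNAs separate the species when set against these 4 was not counted. The log2 differences were 1.46 for miR-183-5p, 1.37 for miR-124-3p, 0.68 for the miR-9 5p arm and 1.19 for miR-125b-5p, each with p = 0.1 and, adjusted over the 4, p = 0.1 (two-sided exact permutation tests, the smallest p possible). The high values of r1 for miR-124-3p, the miR-9 5p arm and miR-125b-5p go with low shares of these miRNAs in r1. There miR-125b-5p held 0.242% of counts against 0.785% in r2 and 0.642% in r4. The miR-9 5p arm held 4.49% in r1 against 7.65% in r2 and 7.76% in r4. Without r1 the difference was 1.65 for miR-183-5p, 1.09 for miR-124-3p, 0.50 for the miR-9 5p arm and 0.75 for miR-125b-5p. In the test across names, miR-124-3p was itself lower in rat, with 13870 CPM ± 1425 in rat and 22620 CPM ± 1503 in mouse (SD, n = 3 each) and a log2 difference of -0.71 ± 0.17 (edgeR, adjusted p = 0.00711). The ratio to miR-124-3p thus holds a change in both of its terms, and the differences of miR-183-5p and miR-125b-5p, given below, were also negative but not called.

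Of the miRNAs known to respond to light in the mouse retina, 5 names were on the list and 4 could be tested, since the rat table names miR-182 without an arm. Both paralogs were the 2 called higher, 0 were called lower (against 25.6% higher and 24.4% lower over all names), and the photoreceptor miRNAs miR-183-5p (-0.69 ± 0.32, edgeR adjusted p = 0.107) and miR-96-5p (0.13 ± 0.17, adjusted p = 0.576) were not called. The median of the 4 was 0.38, against 0.08 over all 398 names, but it includes both paralogs, and that of the 2 photoreceptor miRNAs alone was -0.28. Without r1, 2 were higher and 1 lower, and without m1, m3 or m4, 1 was higher. Of 6 miRNAs enriched in Müller glia, the supporting glia of the retina, 5 could be tested and miR-204-5p was the 1 called higher, a share near the 25.6% of all names. In the same list miR-125b-5p (-0.48 ± 0.23, adjusted p = 0.112), miR-99a-5p (0.15 ± 0.21, adjusted p = 0.579) and miR-29a-3p (-0.34 ± 0.20, adjusted p = 0.186) were not called. The median of the 5 was 0.13, but it includes miR-204-5p, the highest of them. Of the others, miR-125b-5p and miR-29a-3p were negative, and miR-99a-5p and miR-135a-5p (0.13) positive. Without r1, 2 were higher and 2 lower, without r2, 1 was lower, and without m1, m3 or m4, 0 were higher.

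Markers of ocular tissue outside the neural retina (cornea, lens and other epithelia) were present in each library, with none of the 9 listed names in either table at 0. Their summed share was 0.950% in r1, 0.196% in r2 and 0.134% in r4, against 0.141% in m1, 0.0468% in m3 and 0.119% in m4. Most of it was miR-184. The sum was highest in r1 among the rat libraries and in m1 among the mouse libraries, an order set by miR-184. Each of the other names except miR-200a-3p was lowest in r1 among the rat libraries. In mouse, m1 was highest of these only for miR-31-5p and miR-141-3p, and m4 was highest for the rest. On the scale of shares, r1 and m1 had the lowest values of both 5p arms in their species, while by CPM after TMM r1 had the highest value of both in rat, and m1 had the lowest value of miR-204-5p and the highest of miR-211-5p in mouse (8550 CPM, against 8531 in m3 and 8285 in m4). Between species, 3 of the names could be tested, and miR-200a-3p (1.48 ± 0.27, adjusted p = 0.00206) and miR-200c-3p (0.88 ± 0.29, adjusted p = 0.0307), of an epithelial miRNA family, were called higher in rat (25.6% over all names). The tested miR-200b-3p (0.74 ± 0.37, edgeR adjusted p = 0.128) was not called. Without r1, 3 were called higher, and without r4, 1 was. Without m4, 4 of 4 tested were, a further name having passed the filter on low counts. Named differently for the species, miR-184, miR-203 and miR-31 were not tested. By share, the miR-203 3p arm was lower in every rat library (0.005205% to 0.009171%) than in any mouse library (0.01133% to 0.01292%). The miR-31 5p arm was higher (0.002967% to 0.005032% against 0.001265% to 0.002715%). By share, all rat libraries lay above all mouse libraries for 32.2% of the 398 names tested, and the part lying below was not counted. The part of these markers in the results for miR-204 and miR-211 was not tested. The pigment epithelium, for which the pair itself is the known marker, could not be measured apart from it with these names.

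Of 1738 mature mouse sequences in RefSeq, 3 carry the seed of the 5p arms: the paralogs and miR-7670-3p (mouse GRCm38.p6, chr6:38507371-38507393), shown for its like seed.
mmu-miR-7670-3p: uUCCCUUUcugaauaucuguaga
It had 1 count in m1, 0 in m3 and 1 in m4, and the 0 allows a share of up to 9.83e-06% of all counts at a floor of 3 counts. Counts of this seed in the mouse retina thus came almost wholly from miR-204-5p (61.5% in m1, 64.4% in m3 and 64.1% in m4) and miR-211-5p.

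Among 157 other names with at least 100 CPM in a species, those whose profile over the 6 libraries was most like miR-204-5p were named by the root mean square difference of log2 CPM after each was centred on its own mean. They were miR-543-3p of the imprinted Dlk1-Dio3 locus (0.07), miR-320-3p, a miRNA made without Drosha (0.11), miR-211-5p (0.11), miR-1843a-5p (0.13) and miR-152-3p (0.14), against a median of 0.52 over all 157. For miR-211-5p the nearest was miR-204-5p (0.11), followed by miR-543-3p (0.12), miR-99b-3p (0.14), miR-152-3p (0.15) and miR-320-3p (0.16), against a median of 0.54. The paralogs thus stood at places 3 and 1 in each other's order. These are descriptions over 6 libraries that share the TMM scaling, under which the 5 miRNAs near miR-204-5p also share the high value of r1. Reads counted under the wrong paralog, whose 5p arms differ at 1 base in mouse, would bring the profiles of the paralogs closer, which was not tested.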

How the data were processed

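Retinal small RNA libraries (Illumina preparation, HiSeq-2500, single-end reads of 50 bases, per the labels' protocols) were deposited as raw counts per mature miRNA name, 1 table per species. The values are whole numbers in columns headed as counts, and the headers name no normalization. Not given in the sources used here are trimming, aligner, mismatches and the miRNA annotation release. Columns carry numbers that match the sample labels only in part, so each was assigned to its species alone.

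The tables were joined by name without the species prefix (542 shared). The abundance test used edgeR 4.0.16 under R 4.3.3 (filterByExpr, TMM, quasi-likelihood F test, Benjamini-Hochberg over 398 names, called at adjusted p under 0.05). Arm ratios were tested with limma 3.58.1 as log2 of (5p + 0.5) over (3p + 0.5), for the 169 of 232 hairpins listed with both arms that had at least 50 counts in each library. Single ratios were compared by exact permutation tests (SciPy 1.17.1). Shares use all counts of a library, with Wilson intervals. Both tests across names were also run on data simulated under their own model assumptions, which cannot check those assumptions. The alternatives tried were DESeq2 1.42.0, other scalings, no filter, renamed pairs (28 added), other priors and leaving out each library. The named miRNAs were every arm of the pair, seed relatives, list members, the 4 comparison miRNAs, neighbours in the abundance order and the 5 most similar profiles per 5p arm. The members and lists were chosen with earlier results of these data known.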

Additional observations from a re-analysis of the deposited data

How the results depend on the processing

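The differences between species in abundance of the 4 arms, in arm ratios, in paralog ratios and in ratios to the 4 comparison miRNAs kept their direction under each alternative run. Ranks, list medians and profile similarity were computed with 1 setting. Over all names, 102 were called higher in rat and 97 lower, and the balance turned to 94 and 109 with upper-quartile factors (median -0.0115), to 95 and 110 with renamed pairs and to 78 and 81 without m4. No paired analysis was possible because the columns cannot be tied to the numbered samples. The abundance difference of miR-204-5p was 0.55 (adjusted p = 0.0516) with renamed pairs, was 0.40 to 0.79 with 1 library left out, and lost its call without m1, m3 or m4. That of miR-204-3p was called only with totals of the shared names (0.62). The arm difference of miR-211 was -1.19 to -0.82 with 1 library left out and was called only without r1. The number of called hairpins was 41, and 26 (without m3) to 63 (without r1) with 1 library left out, with 27 without m1. All 4 arms together held 2.75% of rat and 1.51% of mouse counts. Of the shared names' counts they held 4.12% in rat and 2.09% in mouse, and without the counts of miR-183, miR-182 and miR-96 they held 4.68% and 2.73%.

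List counts moved as single members crossed the threshold. With renamed pairs, 1 light-regulated miRNA, 0 Müller glia miRNAs and 1 miRNA of other ocular tissue were higher. With totals of the shared names, 2 Müller glia miRNAs were higher. With 1 library left out, 1 to 2 light-regulated miRNAs were higher and 0 to 1 lower, 0 to 2 Müller glia miRNAs were higher and 0 to 2 lower, and 1 (without r4) to 4 (without m4) of the other ocular list were higher. The 3p arms rest on 857 to 5826 counts, which limits their precision more than that of the 5p arms.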
